A study of Mus musculus with 6 samples.

Results

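The genes described here are 47 mouse genes of the cell cycle and of DNA replication, out of 49315 genes in the count table. The rule lists them by gene symbol and uses no measured value, but the list was drawn up with earlier results of these data known. By role they fall into 24 genes of G2 and mitosis (G2/M members, from Mki67 and Top2a to Ube2c and Cdca8), 12 S-phase members (Mcm2 to Mcm7, Pcna, Tyms, Rrm1, Rrm2, Gins2 and Cdc6), 8 other G1/S members (Tk1, Cdc45, Cdt1, Ccne1, Ccne2, E2f1, Uhrf1 and Fen1) and 3 others, the transcription factors Foxm1 and Mybl2 and the nuclear lamina gene Lmnb1. All 47 were found once, and all 47 had at least 10 reads in the higher library of every comparison.

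A dividing cell makes the parts for DNA replication in late G1 and S phase, among them the MCM helicase, the sliding clamp PCNA and the enzymes that supply nucleotides, and it makes cyclin B, the mitotic kinases and the kinetochore proteins in G2 and mitosis. E2F factors drive the first wave, and B-Myb (Mybl2) and FoxM1 drive the second through the MuvB complex. Most cells of the adult lung are out of the cycle, senescent cells have left it for good, and a fall of Lmnb1 is a widely used sign of senescence.

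The libraries came from lung cell suspensions of C57BL/6 mice (C57BL/6J in the methods) given bleomycin sulfate (BLM), a drug that injures the lung and leads to fibrosis, or sterile saline (sham), both by oropharyngeal instillation, and collected 21 days later. Per the methods the mice were males and several lungs of a group were pooled in a tube, so a library is a pool and not an animal. Whether the sorted and the unsorted cells of a treatment came from the same pool is not given in the sources used here. For each treatment 1 library was made from unsorted cells, 1 from cells sorted as Lamp1-depleted and 1 from cells sorted as Lamp1-enriched. The gate was an antibody to Lamp1 on the cell surface, a lysosomal membrane protein that the study uses to mark senescent cells. With 1 library per condition, a ratio of a pair of libraries compares those libraries, and no error between animals can be given.

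The libraries held 30236120 to 52918696 reads assigned to genes. One non-coding gene, Gm26917, took 38.4% of the reads in the Lamp1-depleted library of BLM-treated mice and 0.884% to 7.10% in the other 5, and the TMM factor of that library was 0.699. Levels are given as CPM, the reads of a gene per 1000000 reads, after TMM scaling. Lamp1 itself was at 319, 146 and 491 CPM in the unsorted, Lamp1-depleted and Lamp1-enriched libraries of sham-treated mice, and at 501, 111 and 378 CPM in those of BLM-treated mice. Lamp1 mRNA was thus higher in the enriched than in the depleted library in both treatments, while in BLM-treated mice the unsorted library was above both. The fractions held different cells: the summed level of 10 endothelial markers was 1460 CPM in the depleted and 10357 CPM in the enriched library of sham-treated mice, and 984 and 9665 CPM in those of BLM-treated mice. The 8 B cell markers summed to 3408 and 184 CPM in sham and to 1848 and 83.5 CPM in BLM, and the 10 T cell markers to 677 and 33.4 CPM and to 570 and 21 CPM. None of these markers was at 0 in any library. By the edgeR test described below, all 7 NK cell markers were lower in the enriched libraries. All 8 platelet markers, 7 of 8 fibroblast markers and 6 of 9 epithelial markers were higher there. With total counts alone as the scale, 5 fibroblast and 5 epithelial markers kept these calls. With treatment left out of the fit, 3 and 2 did. All 6 neutrophil markers tested and 5 of 10 monocyte and interstitial macrophage markers were also lower. With treatment left out, 0 and 4 stayed lower. Of 7 dendritic cell markers, 4 were lower and 2 higher. In bulk RNA, fewer cells of a type and less RNA per cell cannot be told apart, and the part of cell composition in the results below was not tested.

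G2/M genes and S-phase genes are known to carry different promoter elements, and promoters of both groups are shown because their levels after BLM differed. The RefSeq table (GRCm38.p6) held a window of 300 bases, 250 before and 50 after the start, for 38 of the 47 members. The letters TTTGAA or TTCGAA, those of the cell cycle genes homology region (CHR) that the MuvB complex binds, stood in the windows of 16 of 20 G2/M genes and of 2 of 10 S-phase genes, against 19.2% of the 32851 windows in the table. The letters CCAAT, which NF-Y binds and which often accompany a CHR, stood in the windows of 18 of 20 G2/M and 8 of 10 S-phase genes, against 37.4%. E2F-type letters (TTTCCCGC, TTTGGCGC, TTTCGCGC or TTTGCCGC) stood in 5 of 10 S-phase windows (Mcm3, Mcm5, Mcm6, Mcm7 and Cdc6) and in 1 of 20 G2/M windows, that of Cdk1, against 2.26%. Both strands were searched, and none of the 3 kinds of letters contains another. A gene was counted if any of its windows held the letters, while the percentages are shares of single windows. A match describes letters and is not a binding site, and a window without one says only that these letters are not in it. The 160 bases before the start are printed 5′ to 3′ in the direction of the gene, with every match in capitals, for 4 G2/M genes (Cdk1 at chr10:69352913-69353072 (minus strand), Ube2c at chr2:164769769-164769928 (plus strand), Kif11 at chr19:37376222-37376381 (plus strand) and Top2a at chr11:99024190-99024349 (minus strand)) and 4 S-phase genes (Mcm5 at chr8:75109349-75109508 (plus strand), Mcm6 at chr1:128359706-128359865 (minus strand), Cdc6 at chr11:98907991-98908150 (plus strand) and Rrm2 at chr12:24708094-24708253 (plus strand)):
Cdk1: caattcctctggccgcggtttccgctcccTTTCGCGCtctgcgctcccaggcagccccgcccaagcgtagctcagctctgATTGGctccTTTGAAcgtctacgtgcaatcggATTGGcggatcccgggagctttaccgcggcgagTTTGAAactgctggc
Ube2c: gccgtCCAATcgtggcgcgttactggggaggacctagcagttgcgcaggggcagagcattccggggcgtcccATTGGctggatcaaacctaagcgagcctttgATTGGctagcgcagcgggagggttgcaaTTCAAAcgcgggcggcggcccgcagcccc
Kif11: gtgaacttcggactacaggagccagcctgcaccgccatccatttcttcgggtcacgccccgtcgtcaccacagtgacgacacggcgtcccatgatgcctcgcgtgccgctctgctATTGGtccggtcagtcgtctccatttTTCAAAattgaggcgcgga
Top2a: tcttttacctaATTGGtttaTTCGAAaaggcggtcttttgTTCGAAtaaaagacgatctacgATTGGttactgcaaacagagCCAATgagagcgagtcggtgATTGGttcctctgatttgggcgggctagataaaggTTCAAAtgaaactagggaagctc
Mcm5: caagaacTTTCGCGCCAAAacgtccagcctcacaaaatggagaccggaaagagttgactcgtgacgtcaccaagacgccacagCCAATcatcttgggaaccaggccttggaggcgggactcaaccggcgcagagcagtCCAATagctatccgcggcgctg
Mcm6: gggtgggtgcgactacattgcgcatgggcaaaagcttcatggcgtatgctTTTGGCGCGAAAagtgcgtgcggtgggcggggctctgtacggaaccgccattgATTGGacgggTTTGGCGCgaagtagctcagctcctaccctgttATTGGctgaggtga
Cdc6: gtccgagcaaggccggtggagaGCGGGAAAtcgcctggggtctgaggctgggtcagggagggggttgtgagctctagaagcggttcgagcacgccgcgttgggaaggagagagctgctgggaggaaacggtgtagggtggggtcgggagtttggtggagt
Rrm2: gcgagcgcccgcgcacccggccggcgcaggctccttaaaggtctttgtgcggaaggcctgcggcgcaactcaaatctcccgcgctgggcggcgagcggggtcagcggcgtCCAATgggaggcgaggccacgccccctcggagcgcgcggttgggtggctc
In Mcm5 and Mcm6 a pair of E2F-type matches on opposite strands overlap and appear as 1 longer run. Rrm2, whose ratio of BLM over sham in unsorted cells was the highest of the S-phase members, held a CCAAT match and neither of the other kinds of letters in this stretch. Whether the letters in a promoter go with the ratio of its gene was not tested.

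**Figure D1:**
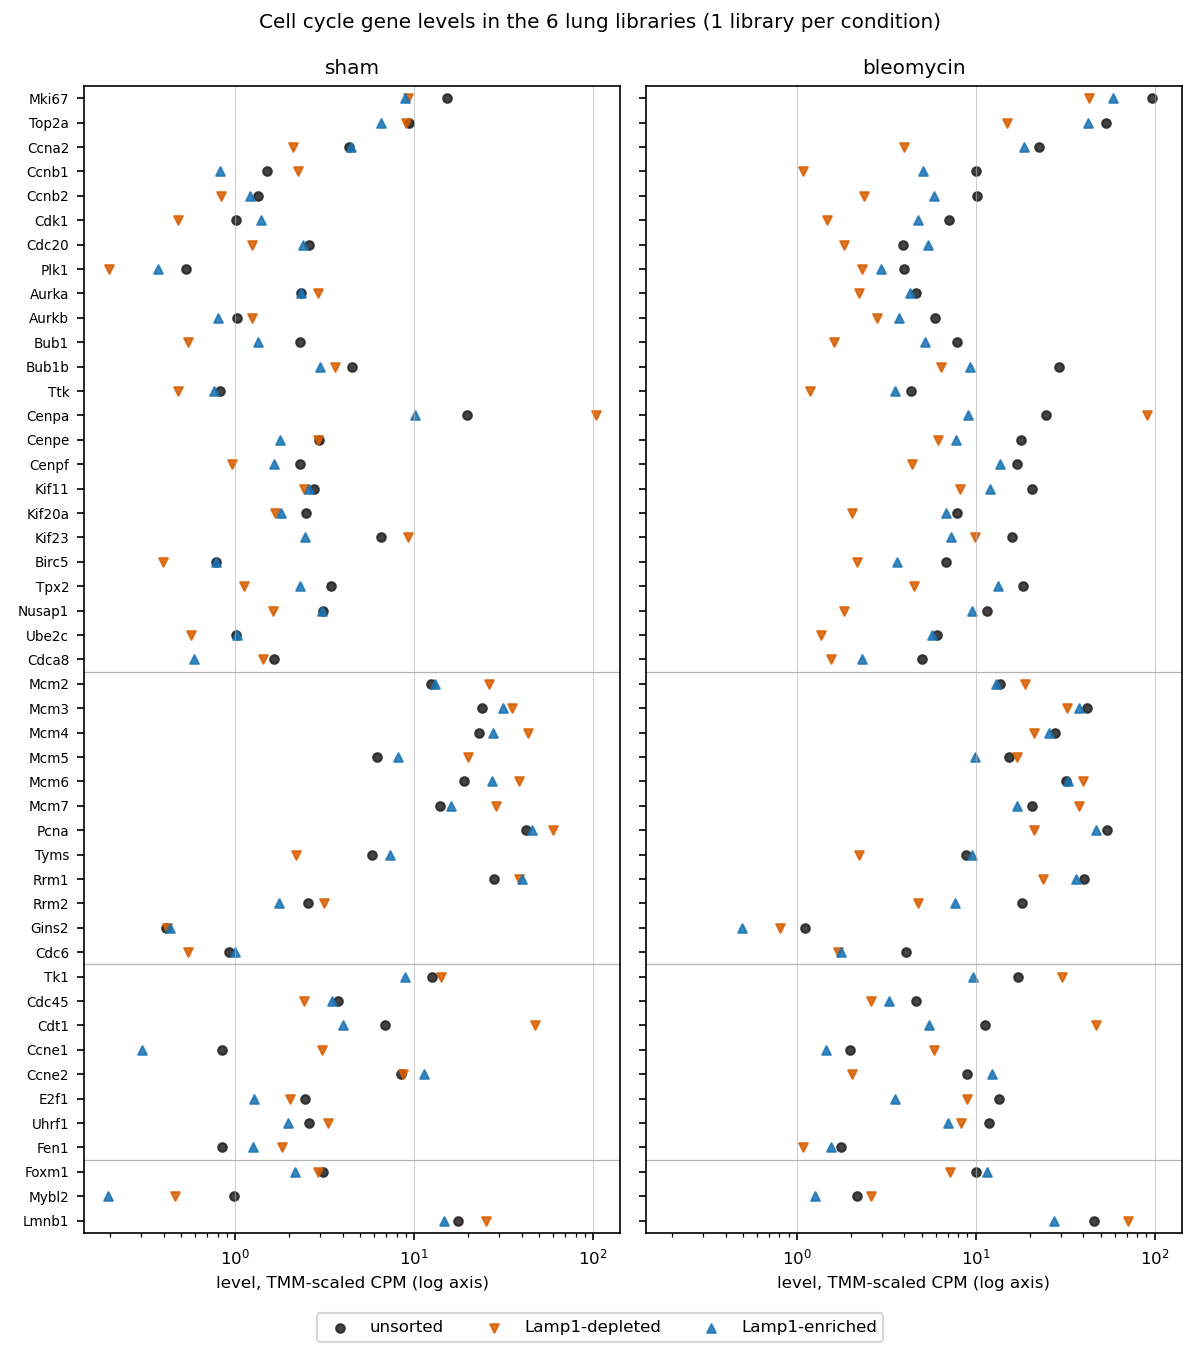
Level of each of the 47 genes (rows, grouped by role with grey lines between groups) as TMM-scaled CPM on a log axis, in sham-treated mice (left) and BLM-treated mice (right). Each symbol is 1 library. In BLM the black unsorted symbols of the G2/M genes sit to the right and the orange Lamp1-depleted ones to the left, for 22 of 24 genes each: Cdc20 was highest in the Lamp1-enriched library, Kif23 was lowest there, and Cenpa was highest in the Lamp1-depleted library of both treatments (104 and 90.3 CPM). The share of all genes with this order was not counted.

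The first question was how the levels of these genes differed between BLM and sham in unsorted lung cells. All 47 members were above their sham level, and 32 were at least 2-fold higher and 0 at least 2-fold lower, where 13.9% of the 22772 genes compared were higher and 16.0% lower. The higher ones were 21 of 24 G2/M, 4 of 12 S-phase, 4 of 8 other G1/S and all 3 of the last group. The median log2 ratio was 2.51 over G2/M members and 0.68 over S-phase members, a difference of 1.83, and -0.07 over all genes. No test was possible with 1 library a side, so the intervals given with ratios are exact 95% counting intervals and cover counting error only.

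Among the G2/M members Mki67, the proliferation antigen Ki-67 (chr7:135689784-135716361, minus strand, GRCm38), was at 15.3, 9.32 and 8.91 CPM in the unsorted, Lamp1-depleted and Lamp1-enriched libraries of sham-treated mice and at 96.2, 43.1 and 58.6 CPM in those of BLM-treated mice. All 3 BLM libraries were above all 3 sham libraries. The log2 ratio of BLM over sham was 2.65 (2.54 to 2.77) in unsorted, 2.21 (2.04 to 2.38) in depleted and 2.72 (2.57 to 2.87) in enriched cells, which is 6.30-, 4.61- and 6.57-fold. Top2a, the topoisomerase that untangles chromosomes, was at 9.37, 9.08 and 6.56 CPM in sham and at 53.2, 15.0 and 42.6 CPM in BLM, so its rank among BLM libraries matched that of Mki67 but the depleted library lay much nearer to sham. It was 5.67-, 1.65- and 6.48-fold higher in BLM, and the log2 ratio in depleted cells was 0.72 (0.50 to 0.93).

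Cdk1, the kinase that starts mitosis, was at 1.01, 0.483 and 1.39 CPM in sham and at 7.07, 1.47 and 4.75 CPM in BLM. Its BLM over sham ratio in unsorted cells was 6.94-fold. Cyclin B1 (Ccnb1), the partner of Cdk1, behaved otherwise in the depleted fraction: the gene was at 1.504, 2.24 and 0.826 CPM in sham and at 10.01, 1.09 and 5.10 CPM in BLM. Its log2 ratio was 2.73 (2.37 to 3.12) in unsorted, -1.03 (-1.76 to -0.38) in depleted and 2.61 (2.13 to 3.16) in enriched cells, and the depleted value rests on 102 and 23 reads. Cyclin A2 (Ccna2), which acts in S phase and G2, was at 4.33, 2.11 and 4.48 CPM in sham and at 22.5, 3.98 and 18.5 CPM in BLM. Cyclin B2 (Ccnb2) read 2.91, 1.49 and 2.25, but a pseudogene, Ccnb2-ps, held 727 reads over the 6 libraries against 928 of Ccnb2, and the way shared reads were assigned is not given, so its values are uncertain.

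The mitotic kinases and checkpoint genes varied in size. Plk1, a polo kinase of mitotic entry, had the largest ratio in depleted cells, 3.46 (2.51 to 4.77), from 9 and 49 reads. Birc5, the survivin subunit of the chromosomal passenger complex, had the largest in unsorted cells, 3.10 (2.62 to 3.65), at 0.783 CPM in sham and 6.79 CPM in BLM. Its partner kinase Aurkb read 2.52, 1.15 and 2.20 in unsorted, depleted and enriched cells, whereas the spindle pole kinase Aurka read 0.99, -0.39 and 0.89 and stayed within 2-fold in every fraction. The checkpoint gene Bub1b was at 4.53 CPM in sham and 29.2 CPM in BLM unsorted cells, and its log2 ratios were 2.68, 0.82 and 1.64. Bub1 and Ttk, kinases of the same checkpoint, read 1.76 and 2.39 in unsorted and 1.95 and 2.20 in enriched cells. Among kinetochore and spindle genes, Cenpf read 2.87, 2.17 and 3.04, the largest ratio in enriched cells, and Kif11, the bipolar spindle motor, read 2.89, 1.74 and 2.22. Cenpe, a kinetochore motor, read 2.61, 1.08 and 2.12, and Tpx2, which builds spindle microtubules and activates Aurora A, read 2.42, 2.01 and 2.52. Nusap1, which also binds spindle microtubules, read 1.90 and 1.64 in unsorted and enriched cells and 0.18 (-0.41 to 0.76) in depleted cells, where its interval spans 0. The cytokinesis motors Kif20a and Kif23 and the passenger complex gene Cdca8 showed the same split, with 1.66, 1.28 and 1.60 in unsorted cells, 1.92, 1.56 and 1.96 in enriched cells and 0.29, 0.09 and 0.13 in depleted cells. The exons of Kif20a and Ube2c lie in part opposite other genes (29.3% opposite Cdc23 and 22.8% opposite Tnnc2), and Ccna2 shares 12.5% of its exon bases with Exosc9. Cdc23 had 1345 to 1558 reads in the sham libraries against 76 to 121 of Kif20a, and Exosc9 had 751 to 993 against 96 to 210 of Ccna2, so the values of Kif20a and Ccna2 are uncertain. Tnnc2 had 0 to 7 reads in the sham libraries.

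Only 3 G2/M members stayed within 2-fold in unsorted cells, namely Cenpa (0.33), Cdc20 (0.60) and Aurka (0.99). Cdc20 and Ube2c both serve the anaphase-promoting complex, and Ube2c read 2.58 where Cdc20 read 0.60. Cdc20 shares 2.84% of its exon bases with Elovl1 on the other strand. Elovl1 had 1264 to 3676 reads in the sham libraries, so the values of Cdc20 are less certain. Cenpa, the histone H3 variant of the centromere (chr5:30666777-30674830, plus strand, GRCm38), also stayed within 2-fold in depleted (-0.20) and enriched cells (-0.17).

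The S-phase members moved less. Pcna, the sliding clamp and the member with the highest level per exon length in 5 of 6 libraries, was at 42.1, 60.0 and 45.8 CPM in the unsorted, depleted and enriched libraries of sham-treated mice and at 54.1, 21.3 and 46.9 CPM in those of BLM-treated mice. The depleted BLM library was the lowest of the 6 and the depleted sham library the highest. Its log2 ratios of BLM over sham were 0.36 (0.27 to 0.45), -1.49 (-1.64 to -1.35) and 0.03 (-0.05 to 0.12). Rrm1, the large subunit of ribonucleotide reductase, read 0.53, -0.71 and -0.15. Rrm2, the small subunit and the one whose amount limits the enzyme in S phase, was at 2.55, 3.14 and 1.76 CPM in sham and at 18.1, 4.73 and 7.63 CPM in BLM. Its ratios of 2.82 (2.55 to 3.11), 0.59 (0.21 to 0.97) and 2.11 (1.77 to 2.48) made it the highest S-phase member in unsorted and in enriched cells, and the only S-phase member past 2-fold in enriched cells. Both subunits form 1 enzyme, yet in unsorted cells their ratios were 7.06-fold and 1.44-fold.

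The 6 MCM genes, whose products form the replicative helicase, summed to 98.7, 192 and 124 CPM in sham and to 151, 168 and 136 CPM in BLM. The depleted library was the highest of its treatment in both, but when total counts alone set the scale, the depleted BLM library was the lowest of its treatment (117 CPM against 140.1 and 150.3 CPM). In unsorted cells their log2 ratios ran from 0.14 for Mcm2 to 1.31 (1.11 to 1.52) for Mcm5, and in enriched cells none was past 2-fold, from -0.11 for Mcm4 to 0.29 for Mcm5. Mcm3 and Mcm6 lay between these ends, at 0.79 and 0.76 in unsorted and 0.27 and 0.25 in enriched cells. In depleted cells Mcm4 read -1.03 (-1.18 to -0.88) and Mcm7 0.40 (0.27 to 0.53), so subunits of 1 complex stood on both sides of 0. Mcm7 shares 7.25% of its exon bases with Ap4m1 on the other strand, which had 759 to 855 reads in the sham libraries. Per kilobase of exon the levels in unsorted sham cells ran from 1.55 CPM for Mcm5 to 6.44 CPM for Mcm3. Cdc6, which loads the helicase, read 2.12, 1.61 and 0.81, from 45 to 160 reads in unsorted cells. Tyms, thymidylate synthase, read 0.60, 0.02 and 0.38. Gins2, a subunit of the active helicase, read 1.41, 0.92 and 0.18 from 17 to 44 reads, and 67.3% of its exon bases lie on the other strand of Gse1, a gene with 2250 to 2419 reads in the sham libraries, so its values are uncertain.

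Of the other G1/S members, E2f1, the factor that gives the E2F wave its name, was at 2.47, 2.02 and 1.28 CPM in sham and at 13.5, 8.95 and 3.56 CPM in BLM. Each BLM library was above every sham library, with log2 ratios of 2.45, 2.14 and 1.47. Uhrf1, which carries DNA methylation through replication, read 2.19, 1.31 and 1.82. The cyclin E genes, which drive entry into S phase, parted: Ccne1 read 1.22, 0.92 and 2.22, and Ccne2 read 0.08, -2.09 (-2.59 to -1.64) and 0.12. Ccne2 had 397 reads in the depleted sham and 43 in the depleted BLM library, and 17.4% of its exon bases lie opposite Ints8, which had 3579 to 4119 reads in the sham libraries, so its values are uncertain. Tk1, the thymidine kinase of the salvage path, read 0.45, 1.10 (0.94 to 1.26) and 0.12 and was past 2-fold in depleted cells only. Cdc45, which completes the helicase, read 0.29, 0.10 and -0.08, and its intervals spanned 0 in all 3 fractions. It shares 5.96% of its exon bases with Ufd1 on the other strand, which had 1805 to 1872 reads in the sham libraries. Cdt1 read 0.70, -0.01 and 0.45. Fen1, which trims Okazaki fragments, shares 78.8% of its exon bases with an antisense gene, Gm10143, and is uncertain. In the last group Foxm1 read 1.69, 1.29 and 2.42 and Mybl2 1.13, 2.46 and 2.63, the latter from 9 and 69 reads in enriched cells.

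Lmnb1, lamin B1, was at 17.6, 25.2 and 14.8 CPM in sham and at 46.1, 71.4 and 27.6 CPM in BLM. It was higher in BLM in each fraction, by 2.62-fold in unsorted, 2.84-fold in depleted and 1.86-fold in enriched cells (log2 intervals of 1.27 to 1.51, 1.39 to 1.62 and 0.77 to 1.03). The enriched library held the lowest and the depleted library the highest level in both treatments.

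In depleted cells 20 members were at least 2-fold higher in BLM and 4 lower, where 13.7% of genes were higher and 22.3% lower. The higher ones included 13 of 24 G2/M and 1 of 12 S-phase members, and the lower ones were Ccnb1, Mcm4, Pcna and Ccne2. The medians were 1.12 over G2/M and -0.05 over S-phase members, and -0.20 over all genes. This comparison holds the library with the large share of Gm26917: scaled by total counts only, all its ratios fell by 0.72 and 8 members were higher and 8 lower, and with Gm26917 left out of the totals 20 were higher and 4 lower. In enriched cells 28 members were higher and 0 lower, against 10.2% and 7.86% of genes. They included 22 of 24 G2/M members and 1 of 12 S-phase members, with medians of 2.15 and 0.22 and a median of -0.00 over all genes.

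**Figure D2:**
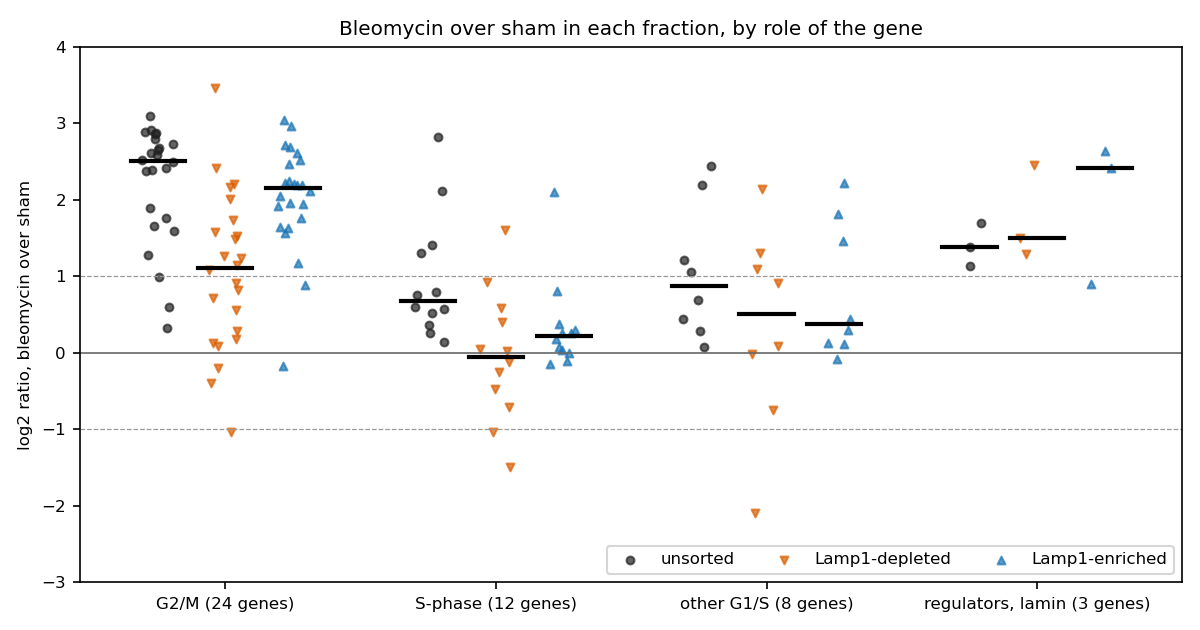
Log2 ratio of BLM over sham for each gene (points) in unsorted, Lamp1-depleted and Lamp1-enriched cells, by role; black bars are medians and dashed lines mark 2-fold. The G2/M medians are 2.51, 1.12 and 2.15 and the S-phase medians 0.68, -0.05 and 0.22; 1 library per condition, so no error between animals is shown.

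Summed macrophage markers were higher in BLM in unsorted and, to a smaller extent, in enriched cells. The 9 alveolar macrophage markers found summed to 657 CPM in sham and 2799 CPM in BLM unsorted cells, and the 10 markers of monocytes and interstitial macrophages to 161 and 987 CPM. From sham to BLM the first list went from 296 to 402 CPM in enriched and from 182 to 233 CPM in depleted cells. The second went from 91.1 to 183 CPM and from 429 to 333 CPM. Fabp1 was at 0 in both sorted BLM libraries. In enriched cells 5 of 8 and 5 of 10 markers were at least 2-fold higher in BLM, and 1 of each list was lower. In depleted cells 2 of 9 and 4 of 10 were higher, and 3 and 1 were lower. By list, 6 of 9 and 9 of 10 of these markers were at least 2-fold higher in BLM unsorted cells, and 2 and 0 were lower. Fibroblast markers, 8 in all, went from 543 to 942 CPM in unsorted and from 313 to 982 CPM in enriched cells, but only the collagen genes Col1a1, Col1a2 and Col3a1 were at least 2-fold higher in either, and in unsorted cells 3 were lower and the median log2 ratio was -0.02. Some other markers were lower. In unsorted cells all 8 platelet markers (333 to 59.5 CPM in sum) and all 7 erythroid markers compared were at least 2-fold lower in BLM. So were 5 of 7 NK cell, 4 of 8 B cell and 4 of 10 endothelial markers. No marker of these lists was at least 2-fold higher there. However, 3 of the 8 B cell markers were above their sham level, and the list went from 279 to 251 CPM in sum. In enriched cells 8 of 8 platelet and 6 of 7 NK cell markers were lower, and in depleted cells 6 of 7 NK cell markers were lower. Neutrophil markers went in sum from 47.9 to 328 CPM in depleted cells, where all 6 compared were at least 2-fold higher. Of all genes compared in unsorted cells, 13.9% were at least 2-fold higher in BLM and 16.0% lower. The shares were 10.2% and 7.86% in enriched and 13.7% and 22.3% in depleted cells. The part of the cells that carry these markers in the cell cycle results was not tested.

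The G2/M and S-phase members were then compared within each library, which needs no scaling between libraries. In sham-treated mice the reads of the 24 G2/M genes over those of the 12 S-phase genes gave a log2 balance of -0.93 in unsorted, -0.89 in depleted and -1.82 in enriched cells. In BLM-treated mice it was 0.57, -0.03 and 0.13. The balance was higher in BLM by 1.49, 0.86 and 1.95, and the counting intervals were far narrower than these differences. One gene weighed heavily on it: Cenpa held 64.7% of the G2/M reads in the depleted sham and 41.5% in the depleted BLM library, against 3.47% to 21% in the other libraries. Without Cenpa the balance was -1.27, -2.39 and -2.07 in sham and 0.48, -0.80 and 0.08 in BLM, and the depleted library, with the highest balance of the sham libraries before, had the lowest.

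**Figure D3:**
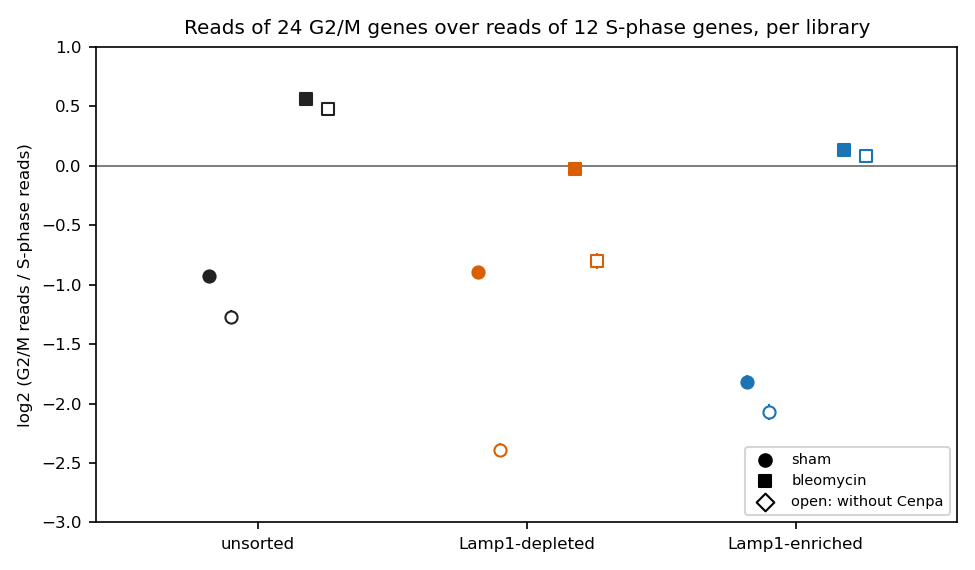
Log2 of the reads of 24 G2/M genes over the reads of 12 S-phase genes in each library (filled symbols, circles for sham and squares for BLM) and the same without Cenpa (open symbols); vertical lines are exact 95% counting intervals, mostly smaller than the symbols. The BLM value lies above the sham value in each fraction, and the open circle of the Lamp1-depleted sham library (-2.39) lies far below the filled one (-0.89).

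The second question was how the sorted fractions differ. The edgeR quasi-likelihood test compared the enriched with the depleted libraries over both treatments, with treatment as a block. It had 1 residual degree of freedom, and its spread came from all genes together (biological coefficient of variation 0.316). That spread reflects how far sorting effects differed between the treatments over all genes, not the spread between animals. A gene's own difference between the treatments did not set the spread used for it. A low p-value therefore does not show that the treatments agreed for that gene. At an adjusted p under 0.05, 7 members were higher and 9 lower in enriched cells, while 21.5% of 20593 genes were higher and 19.2% lower. The higher ones were Ccna2, Cdk1, Cenpf, Tpx2, Nusap1, Tyms and Ccne2, and the lower ones were Cenpa, Kif23, Mcm2, Mcm5, Mcm7, Tk1, Cdt1, Ccne1 and Lmnb1. The share of members called was near or below that of all genes in each direction. By role, 5 of 24 G2/M members were higher and 2 lower, and 1 of 12 S-phase members was higher and 3 lower. The count of 16 calls fell to 5 (Ccna2, Tyms, Cenpa, Cdt1 and Ccne1) with total counts only. It fell to 3 (Cenpa, Tyms and Cdt1) without the treatment block.

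Cdt1 and Cenpa differed most. Cdt1, the licensing factor that brings the MCM helicase to origins, was at 6.90, 47.6 and 4.0 CPM in the unsorted, depleted and enriched libraries of sham-treated mice and at 11.2, 47.2 and 5.47 CPM in those of BLM-treated mice. Its log2 ratio of enriched over depleted was -3.44 over both treatments (adjusted p = 1.32e-17, edgeR), which is 10.8-fold lower. Cenpa was at 19.7, 104 and 10.2 CPM in sham and at 24.7, 90.3 and 9.06 CPM in BLM, with a log2 ratio of -3.43 (adjusted p = 1.87e-18, edgeR). Ccne1 was at 0.845, 3.07 and 0.304 CPM in sham and at 1.98, 5.82 and 1.45 CPM in BLM, with a log2 ratio of -2.71 (adjusted p = 3.30e-05, edgeR). For all 3 genes the depleted library was the highest of its treatment and the enriched library the lowest. The B and T cell markers, of which all 8 and all 10 were lower in enriched cells, moved the same way, and their part in this result was not tested.

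Smaller differences in the same direction were found for Tk1, the salvage thymidine kinase (-1.27, adjusted p = 0.00299), Kif23, a motor of cytokinesis (-1.27, adjusted p = 0.0126), Lmnb1 (-1.17, adjusted p = 0.00305), Mcm5 (-1.14), Mcm7 (-1.09) and Mcm2 (-0.87), all by the edgeR test. None of these calls, that of Lmnb1 included, was kept with total counts only or with no treatment block. Of the members higher in enriched cells, Tyms differed most. It was at 2.19 CPM in the depleted and 7.39 CPM in the enriched library of sham-treated mice and at 2.22 and 9.60 CPM in those of BLM-treated mice, a log2 ratio of 1.83 (adjusted p = 5.76e-04, edgeR). Tyms and Tk1 both make thymidine monophosphate, the first from deoxyuridine monophosphate and the second by salvage, and their ratios lay on opposite sides of 0. Ccna2 (1.56, adjusted p = 0.00196), Nusap1 (1.54), Cdk1 (1.51), Ccne2 (1.35), Tpx2 (1.21) and Cenpf (1.13) followed by the same test. Ccna2 and Ccne2 share 12.5% and 17.4% of their exon bases with genes on the other strand.

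**Figure D4:**
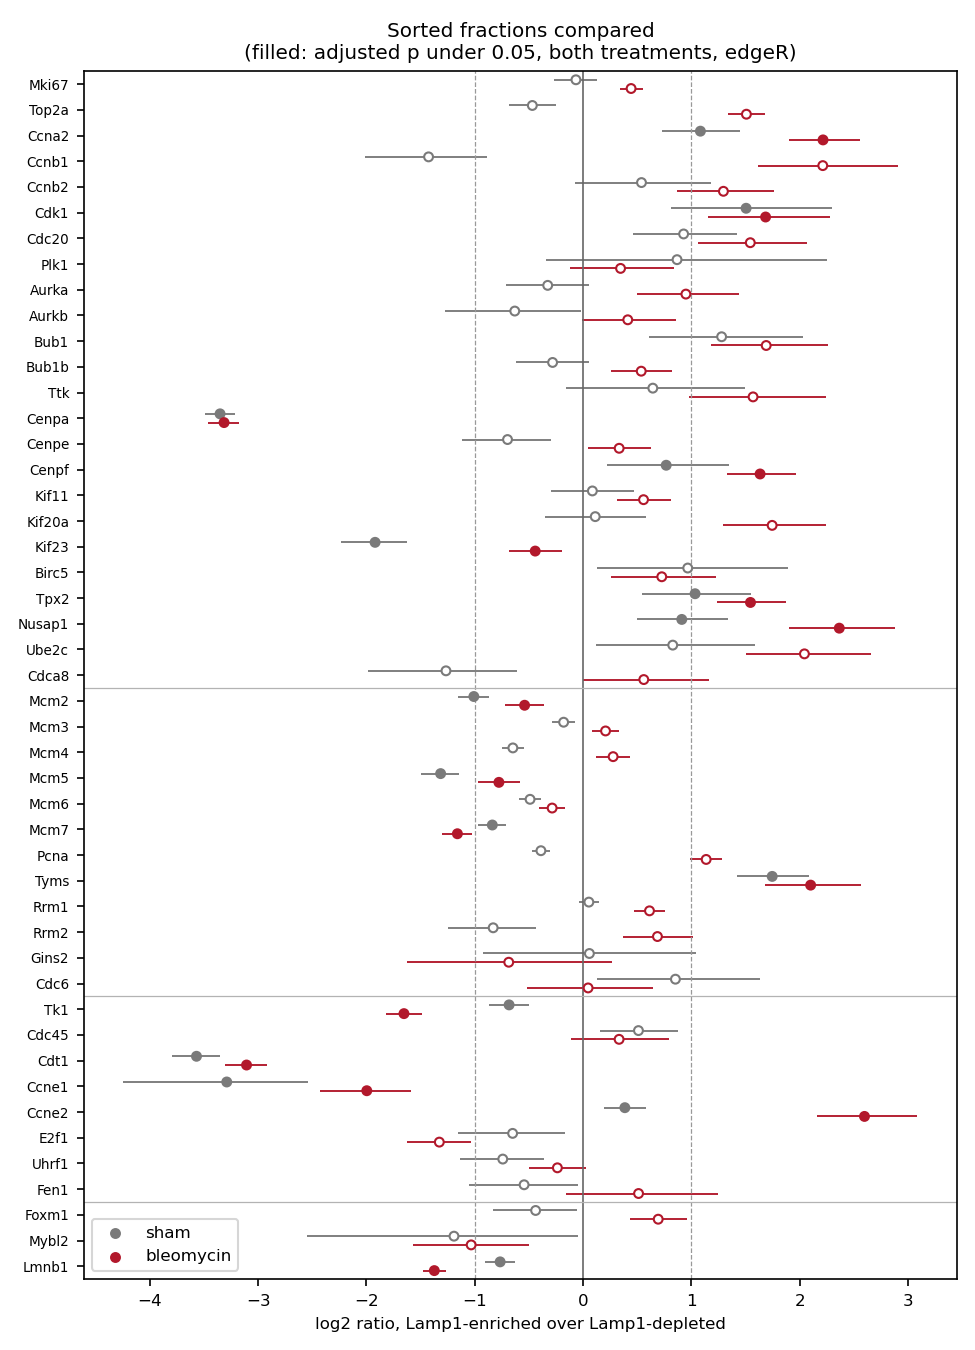
Log2 ratio of Lamp1-enriched over Lamp1-depleted for each gene in sham (grey) and BLM (red), with exact 95% counting intervals as lines; filled points mark the 16 genes with an adjusted p under 0.05 in the edgeR test over both treatments. Cenpa and Cdt1 lie beyond -3 in both treatments, and Ccnb1 lies at -1.43 in sham and 2.21 in BLM.

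Within each treatment there is no test. In sham-treated mice 5 members were at least 2-fold higher and 9 lower in enriched than in depleted cells, where 27.5% of genes were higher and 25.2% lower. Both member shares were below those of all genes. The higher ones were Ccna2, Cdk1, Bub1, Tpx2 and Tyms, and the medians were 0.33 over G2/M and -0.44 over S-phase members. In BLM-treated mice 16 were higher and 8 lower, against 34.3% and 22.6% of genes, with 13 of the 16 among the G2/M members and medians of 1.40 and 0.13. Over all genes compared, the sham median was -0.01 and the BLM median 0.29. The split changed with scaling: total counts only gave 3 higher and 11 lower in sham and 26 higher and 4 lower in BLM, where it raised all ratios by 0.56. That shift is enough to move Mcm2, Mcm6, Kif23 and Uhrf1 from below to above 0 in BLM.

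The sorting ratio was higher in BLM than in sham for 38 of 47 members, 22 of them G2/M, and its sign turned from negative to positive for 14, where it was higher in 59.0% and turned in 14.2% of the 20463 genes with at least 10 reads in both comparisons. With total counts only, the ratio was higher in BLM for 44 members and 83% of genes, and turned for 21 members and 27.1% of genes. The median difference, BLM minus sham, was 0.56 over the members and 0.21 over all genes by TMM, and 1.29 and 0.94 by total counts. Ccnb1 turned furthest, from -1.43 (-2.02 to -0.89) to 2.21 (1.61 to 2.91). Pcna turned from -0.39 (-0.47 to -0.31) to 1.14 (0.99 to 1.29), and the move came from the depleted side, where Pcna went from 60.0 to 21.3 CPM while the enriched libraries stood at 45.8 and 46.9 CPM. Top2a turned from -0.47 to 1.51, and Mki67 from -0.07 to 0.44. Of the members that kept their sign, Ccne2 went from 0.39 to 2.60. The difference between the treatments was not tested, since it is the only residual degree of freedom of the fit.

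The unsorted library was the third point of each treatment. In BLM it was the highest of the 3 libraries for 22 of 24 G2/M members, and the depleted library was the lowest for 22 of 24. In sham the unsorted library was the highest for 16 of 24 G2/M members and the lowest for 9 of 12 S-phase members, a count that fell to 5 when total counts alone set the scale. The shares of all genes with these orders were not counted, so the member counts have no background. Over all genes the median log2 ratio of depleted over unsorted was -0.34 in BLM and -0.03 in sham. That of enriched over unsorted was 0.04 and -0.03. At 1.5-fold, 14 members in BLM and 3 in sham were above both sorted fractions, where 12.6% and 12% of genes were, and 0 members were below both in either treatment, where 4.64% and 2.63% of genes were. The 3 in sham were Mki67, Bub1 and Mybl2, and the 14 in BLM were 11 G2/M members with Rrm2, Cdc6 and E2f1. Bub1b, at 29.2 CPM in unsorted BLM cells, was at 6.39 CPM in the depleted and 9.28 CPM in the enriched library. The source of such levels was not tested.

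Set against the unsorted cells, 0 members were at least 2-fold higher and 4 lower in enriched cells of sham-treated mice (2.63% and 15.9% of genes), and 0 were higher and 10 lower in those of BLM-treated mice (12.6% and 19.1% of genes). The 4 in sham were Kif23, Cdca8, Ccne1 and Mybl2. In depleted cells 8 were higher and 9 lower in sham (18.3% and 30.4% of genes), and 3 were higher and 26 lower in BLM (16.8% and 33.6% of genes). The 26 included 21 of 24 G2/M members, whose median was -1.85 beside -0.42 for S-phase members and -0.34 for all genes. The 3 higher ones were Cenpa, Cdt1 and Ccne1. Both sets share the unsorted library of the treatment, so the counts are given side by side and were not compared.

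Other cell cycle genes were read from 4 further lists. In unsorted cells 35 of 50 other mitotic genes were at least 2-fold higher in BLM and 0 lower, with a median log2 ratio of 1.74, and 13 of 51 other replication genes were higher and 1 lower, with a median of 0.46. In enriched cells the counts were 35 of 50 and 9 of 51, with 0 lower in each list, and the medians 1.58 and 0.21. Over all genes 13.9% were higher and 16.0% lower in unsorted cells, and 10.2% and 7.86% in enriched cells. The medians over all genes were -0.07 and -0.00. Between the sorted fractions the edgeR test called 7 other mitotic genes higher and 6 lower of 49 tested, and 0 other replication genes higher and 15 lower of 51, where 21.5% of all genes were higher and 19.2% lower. With total counts only, 1 replication gene (Cdc7) stayed lower, and 8 did without the treatment block, while the mitotic genes gave 3 higher and 1 lower and 1 higher and 2 lower. The kinase Cdc7 and its activator Dbf4, which fire origins, read -2.13 and -1.94, and Pole, the leading-strand polymerase, read -2.07. At the other end of the replication list Rfc4, Chaf1a and Timeless read 1.18, 0.88 and 0.74 and were not called. The treatments differed for Rfc4, at -0.10 in sham and 2.83 in BLM, where its depleted level was 0.899 CPM. Ndc80 and Spc25 belong to the same kinetochore complex and read -2.25 and 1.88. By treatment, Ndc80 was at -3.36 in sham and -0.98 in BLM, and Spc25 at 1.55 and 2.42.

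Among 11 G1 cyclins, kinases and their drivers, 3 were higher and 2 lower in enriched cells by the edgeR test. Of all genes 21.5% were higher and 19.2% lower by this test. Cyclin D1 (Ccnd1) was at 31.2 and 375 CPM in the depleted and enriched libraries of sham-treated mice and at 37.5 and 358 CPM in those of BLM-treated mice, a log2 ratio of 3.32. Myc was at 183 and 12.7 CPM and at 235 and 20.03 CPM, a ratio of -3.80, and E2f2 read -2.23. Of 16 genes that hold the cycle back, 3 were higher (Cdkn1a, Cdkn1c and Cdkn2b) and 5 lower (Cdkn1b, Rbl2, Btg1, Btg2 and Gadd45a). Total counts only left 2 higher (Cdkn1c and Cdkn2b) and 0 lower, and no treatment block left the same 2 higher and 3 lower. Of all genes 13.9% were higher and 7.59% lower with total counts only, and 13.0% and 11.6% with no treatment block. Cdkn1a, which encodes the inhibitor p21, was at 66.3, 25.2 and 59.6 CPM in sham and at 144, 65.7 and 113 CPM in BLM. It read 0.92 between the fractions (adjusted p = 0.0205, edgeR), a call lost with total counts only (adjusted p = 0.243) and with no treatment block (adjusted p = 0.336), and each BLM library was above the sham library of its fraction. The same fractions differed in endothelial markers, with all 10 higher in enriched cells, and the part of these cells in the differences was not tested.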

How the data were processed

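Poly(A) RNA of 6 libraries was sequenced as paired Illumina reads. Per the labels the authors' processing notes name Trimmomatic 0.36, STAR 2.5.2b, featureCounts (Subread 1.5.2), DESeq2 and GRCm38. The annotation release and the strand and multi-mapping settings are not given in the sources used here. The deposited file holds raw counts per gene. The 47 members and all lists were chosen with earlier results of these data known.

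Counts were scaled by TMM (edgeR 4.0.16, R 4.3.3). Log2 ratios used a prior count of 0.5 and at least 10 reads in the higher library, and 2-fold marked a difference. Intervals are exact 95% Clopper-Pearson intervals of the share of reads and cover counting error only. Enriched and depleted libraries were compared with edgeR's quasi-likelihood test on genes kept by filterByExpr, with treatment as a block and Benjamini-Hochberg adjustment at 0.05. In the treatment comparisons no test was run, because each condition has 1 library and the fractions of a treatment hold different cells, which are not its replicates. Exon lengths and overlaps came from GENCODE (GRCm38). Named genes were all 47 members and, of each other cell cycle list, some of those with the 3 highest and the 3 lowest sorting ratios and at least 50 reads. Cdkn1a, Cdkn1c and other genes in counts of 5 or fewer are named as well. The 174 rows without a gene name entered the totals. DESeq2 1.42.0 and the other alternatives are given at the end.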

Additional observations from a re-analysis of the deposited data

Results flagged for a closer look

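Ccnb1 drew attention 3 times because its effect had opposite signs in a pair of groups. Between the sorted fractions, enriched over depleted, its log2 ratio was -1.43 for sham-treated and 2.21 for BLM-treated mice. Its log2 ratio of BLM over sham was 2.73 in unsorted and -1.03 in depleted cells, and -1.03 in depleted and 2.61 in enriched cells. All 3 contrasts rest on the 2 depleted libraries, with 102 reads in sham and 23 in BLM, and the BLM one is the library in which Gm26917 took 38.4% of the reads. The differences were not tested, since each condition has 1 library.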

How the results depend on the processing

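Libraries could not be paired by animal, because the labels carry no replicate numbers and each condition has 1 library. Treatment served as the block of the fraction test, which set each enriched library against the depleted library of its treatment. Leaving libraries out was not possible. Of the values that answer a comparison, 148 stayed within the limits set for them (1.5 times for counts) and 43 moved; no called value reversed its sign. Members called between fractions went from 16 to 5 with total counts only and to 3 with no treatment block, and to 13 with the DESeq2 Wald test.

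At a 4-fold limit the members past it were 20, 8 and 18 for BLM over sham in unsorted, depleted and enriched cells, 3 and 8 for enriched over depleted in sham and BLM, 1 and 0 for enriched over unsorted, and 3 and 11 for depleted over unsorted. At 1.5-fold they were 31 for enriched over depleted in sham, 12 and 22 for enriched over unsorted in sham and BLM, and 26 for depleted over unsorted in sham. Enriched over unsorted in sham gave 8 with total counts only, 10 with total counts without Gm26917 and 2 with at least 50 reads. Members with unsorted cells outside both fractions in sham were 7 with either total count.

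The balance of G2/M over S-phase reads, for sham unsorted, depleted and enriched and then BLM unsorted, depleted and enriched, was -1.21, -1.25, -2.02, 0.24, -0.59 and -0.12 with all 20 G1/S and S-phase members, -1.70, -2.64, -2.34, -0.46, -1.54 and -0.66 with equal weight per gene, and -1.27, -2.39, -2.07, 0.48, -0.80 and 0.079 without Cenpa. Without Mki67, Top2a and Pcna it was -0.74 and -1.89 in sham depleted and enriched and 0.23, -0.33 and -0.26 in BLM. The balance was higher in BLM than in sham in every fraction under each of these. The settings without Gm26917 and without Cenpa, and all settings for the other cell cycle lists and for the change of the sorting ratio between treatments, were chosen after the data were seen. The limit on all ratios is the single library per condition; at these depths the median half-width of a member's counting interval was 0.19 to 0.44 on the log2 scale.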
